A study of Mus musculus with 8 samples.

Results

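The 36 genes described here encode the enzymes, transporters and assembly factors of the peroxisome, and they were taken by name from the 17810 genes listed for mouse liver. They comprise the beta-oxidation and alpha-oxidation enzymes, the enzymes that hydrolyse or release acyl-CoA, catalase and an oxidase, 5 membrane transporters or channels and 13 peroxins. RNA-Seq covered 4 WT and 4 HKO livers from male mice, 1 library per liver, and all 36 genes had enough counts to be tested. HKO mice carry miR-33 loxP/loxP alleles that are deleted by Cre recombinase under the albumin promoter, which is active in hepatocytes, and the WT mice were littermates whose floxed alleles, if any, are not given in the sources used here. Both groups ate CD-HFD, a diet high in fat and without added choline that leads to fatty liver, for 3 months from 8 weeks of age, were 5 months old at the end and were fasted briefly before the livers were taken. No group without the diet was analysed here, so every value below is from fatty liver. The comparison asked which peroxisomal genes differed in level between livers with and without hepatocyte miR-33.

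Peroxisomes shorten very long, branched and dicarboxylic fatty acids and the side chain of bile acid precursors. The first step is an oxidation that yields hydrogen peroxide, and the shortened products leave as carnitine esters or free acids to be burned in mitochondria. In rodent liver, many of these enzymes are switched on by PPARα, a nuclear receptor that binds fatty acids, and agonists of this receptor also make peroxisomes multiply. Peroxins build the organelle by inserting membrane proteins, importing matrix enzymes and dividing existing peroxisomes. miR-33 is a microRNA encoded in an intron of Srebf2, and it represses transcripts of cholesterol export and fatty acid oxidation, among them Crot.

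The microRNA removed in HKO hepatocytes is shown here because its seed defines which transcripts it can pair with. Its mature strands are given as listed by RefSeq on GRCm38.p6, both on the plus strand of chromosome 15, with the seed (bases 2 to 8) in capitals. The leading strand lies at chr15:82198127-82198147 and the passenger strand at chr15:82198167-82198188.
mmu-miR-33-5p: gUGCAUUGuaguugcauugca
mmu-miR-33-3p: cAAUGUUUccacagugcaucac
A 7-base match to the seed of the leading strand (CAATGCA or AATGCAA, on the transcript strand) was present in the longest annotated 3'UTR of 5 of the 36 genes, or 13.9%. Among the 11517 tested genes whose annotated 3'UTR is 50 bases or longer, the share was 16.2%, close to that of the 36 genes. The sites are shown on the transcript strand with the match in capitals, and all 5 genes lie on the minus strand of GRCm38. They lie at chr5:8966677-8966702 for Crot, at chr15:91147389-91147413 for Abcd2, at chr3:121760158-121760182 for Abcd3, at chr10:19859594-19859618 for Pex7 and at chr7:79736504-79736528 for Pex11a.
Crot: gttgcaaccaCAATGCAAagtcagat
Abcd2: acaagtcgcaAATGCAAtggtcatc
Abcd3: tgcatttgtaAATGCAAgatgcatt
Pex7: catcctaccaAATGCAAtttacaga
Pex11a: cagtctatgaAATGCAAagcaatct
Crot alone among them had the 8-base form, in which both 7-base matches overlap. The site of Pex7 is in a 3'UTR of 7026 bases and lies beyond the end of the gene as the deposited table lists it. A match is a run of letters and was not tested as a binding site. The levels of these 5 genes are given with their roles. Each had a log2 fold change under 0 in HKO livers, as did 26 of the 36 genes and 5993 of the 12395 genes tested. Of the 5, Abcd3 and Pex11a passed the threshold of an adjusted p under 0.05, and Crot, Abcd2 and Pex7 did not.

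The libraries held between 12174339 and 18735785 estimated counts per liver. Levels are given as CPM, which expresses counts relative to the TMM-scaled library total, and a floor of 3 counts came to between 0.149 and 0.255 CPM, which covers counting error only. Since the deleted microRNA was not analysed here, the genotypes rest on the labels. The order numbers in the column names ran from HKO to WT livers without mixing, and an effect of that order cannot be told apart from one of genotype. Of the 12395 genes tested, 418 were lower and 206 higher in HKO livers by edgeR's quasi-likelihood test at an adjusted p under 0.05, and with total count scaling in place of TMM the numbers were 621 and 119.

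HKO livers had less RNA for most of the fatty acid oxidation enzymes of the peroxisome and for the peroxins that build its membrane and divide it. Of the 36 genes, 11 were lower and 1 was higher with an adjusted p under 0.05, against 3.37% and 1.66% of all genes tested. The genes that fell were the oxidation enzymes Ehhadh, Acaa1a, Acaa1b, Hsd17b4, Decr2 and Ech1, the transporter Abcd3 and the peroxins Pex3, Pex16, Pex19 and Pex11a, and the gene that rose was the membrane channel Pxmp2. The other 24 were not past the threshold, 15 of them with a log2 fold change below 0 and 9 above 0. All 4 HKO livers lay below every WT liver in 15 genes, against 7.21% of all genes, and above every WT liver in 3, against 5.36%. The median log2 fold change was -0.20 over the 36 genes and 0.01 over all genes tested. The differences ranged from -1.88 for Abcd2 to 0.92 for Nudt7, and neither of these extremes passed the test.

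**Figure D1:**
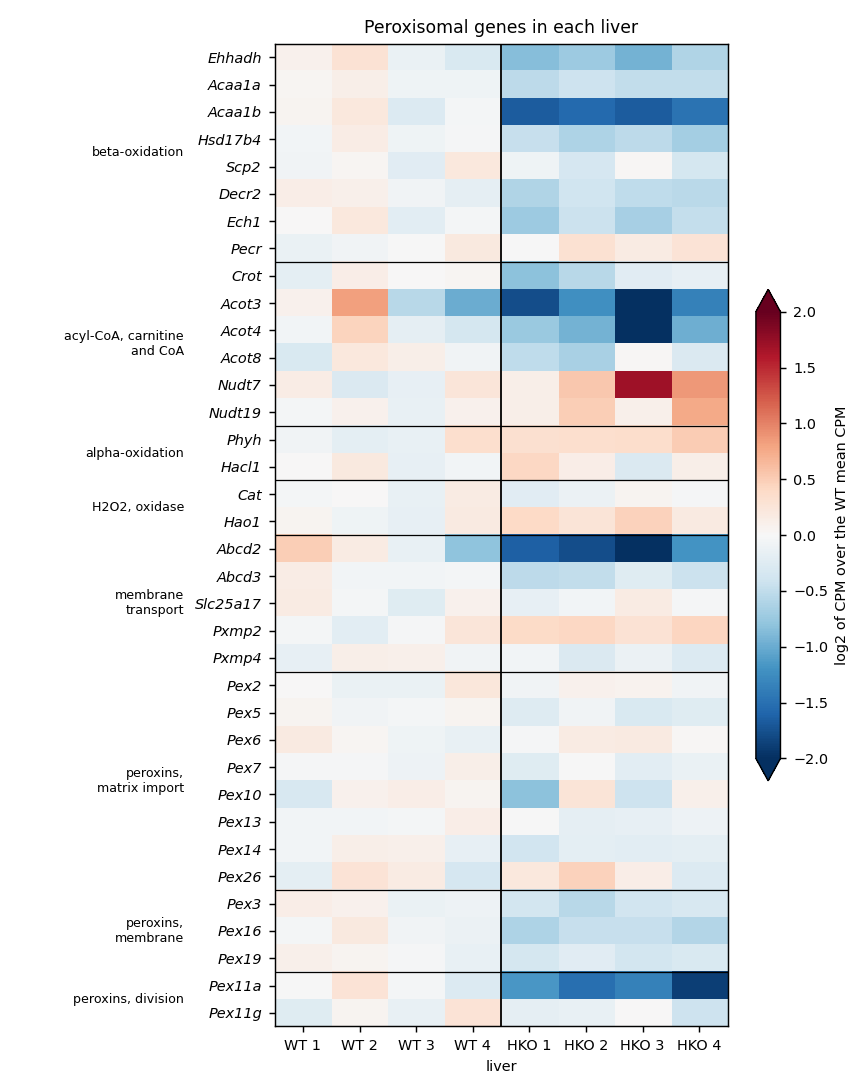
Level of each of the 36 genes in each liver, as the log2 of its CPM over the WT mean CPM (colour, cut at -2 and 2), with genes grouped by role in rows and the 4 WT and 4 HKO livers in columns. Acaa1b and Pex11a were low in all 4 HKO livers. HKO replicate 3 was the lowest HKO liver for Acot3, Acot4 and Abcd2 and the highest for Nudt7.

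Since whole liver was measured, fewer cells of a type and less RNA per cell cannot be told apart. Markers of hepatocytes summed to 91067 to 123049 CPM in WT livers and 83007 to 136059 CPM in HKO livers. Alb was the largest part of each sum, at 62295 to 96088 CPM in WT livers and 47064 to 98815 CPM in HKO livers. Of the 8 markers none fell and 4 rose (Cps1, Serpina1c, Tat and Hnf4a, with log2 fold changes of 1.26, 0.90, 0.87 and 0.36). With each liver left out in turn, Cps1 was called in 8 of 8 fits, Tat in 7, Serpina1c in 3 and Hnf4a in 1. Markers of stellate cells and fibroblasts summed to 351 to 524 CPM in WT livers and 273 to 336 CPM in HKO livers, and 3 of 8 fell, namely Col1a1 (-2.81), Col1a2 (-1.96) and Col3a1 (-1.87), each called in all 8 of those fits. None of the 8 macrophage, 6 endothelial, 3 cholangiocyte and 3 lymphocyte or neutrophil markers tested passed the threshold in edgeR, DESeq2 or limma-voom, and 0 had an unadjusted p under 0.05. Their sums were 86.6 to 229.5 CPM in WT livers and 64.3 to 215 CPM in HKO livers for macrophages, 59.7 to 195 and 98.2 to 219.8 CPM for endothelial cells, 40.6 to 50.8 and 30.8 to 107.8 CPM for cholangiocytes, and 10.5 to 17.9 and 15.9 to 21.3 CPM for lymphocytes and neutrophils. The highest cholangiocyte sum was that of HKO replicate 2, with Krt19 at 16.9, Epcam at 16.5 and Spp1 at 63.1 CPM. No marker was at 0 in every liver, and the part of these cells in the results was not tested.

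Most steps of the beta-oxidation chain were lower. Of its 8 genes, 6 fell, none rose and 2 did not pass the test, with a median log2 fold change of -0.54, and the counts were the same in DESeq2, in limma-voom and by an unadjusted p. Acaa1b, a 3-ketoacyl-CoA thiolase that catalyses the last, chain-cutting step, showed the largest difference among the genes called. It lies on chromosome 9 from 119148043 to 119157094 of GRCm38 and measured 712, 792, 563 and 665 CPM in WT replicates 1 to 4 and 216, 233, 215 and 247 CPM in HKO replicates 1 to 4. The HKO livers lay close together, with a mean 3.00-fold under the WT mean. Means were 683 ± 95.6 and 228 ± 15.00 CPM (SD, n = 4 livers each), with a log2 fold change of -1.59 (SE 0.11, adjusted p = 9.4e-05 by edgeR's quasi-likelihood test). Acaa1a, the paralogous thiolase on chromosome 9 from 119341294 to 119350296, was a much smaller pool at 74.7, 79.5, 69.02 and 68.9 CPM in WT livers and 50.9, 54.7, 52.03 and 51.99 CPM in HKO livers. Its difference of -0.48 on the log2 scale (adjusted p = 0.0053 by the same test) was smaller than that of the more abundant paralog. The counting method splits reads between these near-identical genes, and both had fractional values in all 8 livers. Their sum, which splitting between them does not affect, was 756 ± 100.2 CPM in WT livers and 280.0 ± 15.7 CPM in HKO livers, with a summed log2 fold change of -1.43 (adjusted p = 0.000109).

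Ehhadh and Hsd17b4 encode the bifunctional enzymes that hydrate and then dehydrogenate the chain, the former acting mainly on straight-chain and dicarboxylic substrates and the latter also on branched chains and bile acid precursors. Ehhadh, on chromosome 16 from 21761285 to 21787835, measured 437, 503, 376 and 334 CPM in WT livers and 229, 249, 213 and 273 CPM in HKO livers. Its WT livers were more spread than its HKO livers, with coefficients of variation of 17.9% and 10.6%, and the lowest WT liver was still above the highest HKO liver. The level fell 1.71-fold, a log2 fold change of -0.78 (SE 0.13, adjusted p = 0.00665). Hsd17b4 measured 587, 672, 573 and 595 CPM in WT livers and 442, 397, 422 and 380.4 CPM in HKO livers. All 4 HKO livers lay between 380.4 and 442 CPM, under every WT liver, and the fall was 1.48-fold (log2 fold change -0.56, adjusted p = 0.00433).

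Both auxiliary enzymes among the 36 genes that handle double bonds of unsaturated acids fell. Decr2, the peroxisomal dienoyl-CoA reductase on chromosome 17 from 26081211 to 26090165, measured 286, 282, 248 and 231 CPM in WT livers and 173, 199, 184 and 181 CPM in HKO livers. Ech1, a dienoyl-CoA isomerase found in both peroxisomes and mitochondria, on chromosome 7 from 28825338 to 28832240, measured 190.2, 219, 164 and 184 CPM in WT livers and 114, 140.2, 119 and 136 CPM in HKO livers. The genotypes did not overlap for either gene, with log2 fold changes of -0.51 (adjusted p = 0.00933) and -0.57 (adjusted p = 0.0108). Pecr, an enoyl-CoA reductase that works toward chain elongation, did not share this direction, at 129 to 160.3 CPM in WT livers and 139 to 173 CPM in HKO livers (log2 fold change 0.19, adjusted p = 0.303). Scp2, whose longer product is the thiolase for branched chains and bile acid precursors and whose shorter product carries sterols, was at 6995 to 9507 CPM in WT livers and 6399 to 8315 CPM in HKO livers. These ranges overlapped, and the log2 fold change was -0.18 (adjusted p = 0.505), and gene counts do not separate its products.

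**Figure D2:**
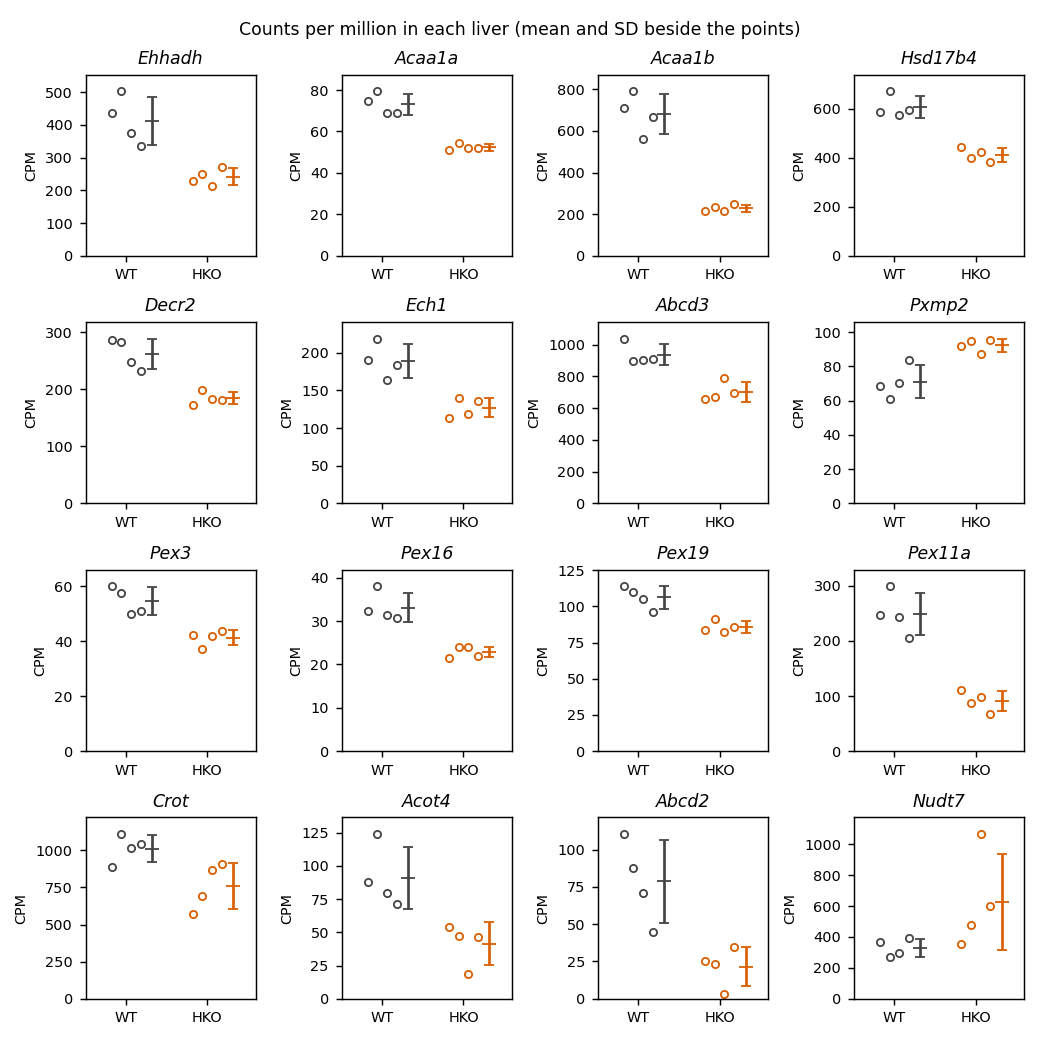
CPM of the 12 genes called and of Crot, Acot4, Abcd2 and Nudt7 in each liver (open circles, in the order of the replicate numbers), with the mean and SD of the 4 livers beside them, and every vertical axis starting at 0. The circles of the genotypes do not overlap in the 12 genes called, whereas the HKO circles of Crot reach 908 CPM, above the lowest WT liver at 886 CPM, and the HKO circles of Nudt7 range widely.

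The enzymes that hand acyl groups on or recycle CoA gave no call. None of these 6 genes passed edgeR's test in either direction, although their median log2 fold change was -0.37. By an unadjusted p under 0.05, 3 were lower and 2 were higher, DESeq2 called 1 lower (Acot4), and limma-voom called 0. Crot, the carnitine octanoyltransferase that lets shortened acyl chains leave the peroxisome, is a known target of miR-33 and carries the 8-base seed match printed above. It lies on chromosome 5 from 8966048 to 8997147 and measured 886, 1110.4, 1014 and 1039 CPM in WT livers and 573, 691, 867 and 908 CPM in HKO livers. The lower HKO livers were replicates 1 and 2, while replicate 4 exceeded the lowest WT liver. The means of 1012 ± 93.8 and 759.8 ± 156 CPM (SD, n = 4) gave a log2 fold change of -0.41 (SE 0.14, adjusted p = 0.123), and total count scaling gave -0.51 with an adjusted p of 0.0479. The paper on these mice reported the opposite direction for CROT protein, which was higher in HKO livers by Western blot. By single-cell RNA-Seq at a later stage of the diet, it also reported altered miR-33 target genes in hepatocytes. Its text does not name the direction of Crot in those cells. Protein was not measured here, and the difference between the RNA values and the protein was not tested.

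Acot3, Acot4, Abcd2 and Nudt7 were chosen for description after their values were seen. HKO replicate 3 was the lowest HKO liver for Acot3, Acot4 and Abcd2 and the highest for Nudt7. None of them is among the groups flagged by Dixon's criterion in the closing sections. Acot3 and Acot4 encode acyl-CoA thioesterases, the former for long-chain and the latter for succinyl and other dicarboxylyl esters. Acot3 measured 109.6, 182, 70.04 and 52.02 CPM in WT livers and 30.3, 44.2, 4.68 and 40.6 CPM in HKO livers. Acot4 measured 87.7, 124, 79.8 and 71.2 CPM in WT livers and 54.3, 47.3, 18.3 and 46.3 CPM in HKO livers. HKO replicate 3 was the lowest liver for both, and the WT livers themselves varied, with a coefficient of variation of 55.7% for Acot3. The log2 fold changes of -1.79 and -1.13 had standard errors of 0.74 and 0.35 and adjusted p values of 0.251 and 0.133. Without HKO replicate 3 they were -1.43 (adjusted p = 0.219) and -0.88 (adjusted p = 0.0335), and Acot4 also passed the threshold in DESeq2 (adjusted p = 0.0329). The 6 thioesterases Acot1 to Acot6 resemble each other and can share reads, and their summed log2 fold change was -1.34 (adjusted p = 0.162).

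Nudt7, a diphosphatase that degrades CoA inside liver peroxisomes, went the other way in the same liver. It measured 365, 269, 295 and 391 CPM in WT livers and 356, 479, 1067 and 603 CPM in HKO livers, with HKO replicate 3 far above the rest and HKO replicate 1 within the WT range. The log2 fold change was 0.92 (SE 0.34, adjusted p = 0.19) and 0.54 (adjusted p = 0.186) without HKO replicate 3. Nudt19, a related CoA diphosphatase, was at 50.03 to 58.99 CPM in WT livers and 59.7 to 93.6 CPM in HKO livers, and these ranges did not overlap (log2 fold change 0.39, adjusted p = 0.144). Acot8, a thioesterase of broad range, was scarce at 3.72 to 5.31 CPM in WT livers and 2.93 to 4.68 CPM in HKO livers (log2 fold change -0.33, adjusted p = 0.39).

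Genes of alpha-oxidation and of hydrogen peroxide handling gave no lower call. Phyh, the hydroxylase that starts the breakdown of phytanic acid, was at 2152 to 3110.2 CPM in WT livers and 3069 to 3489 CPM in HKO livers (log2 fold change 0.38, adjusted p = 0.111). WT replicate 4, at 3110.2 CPM, lay among the HKO livers, and without it the log2 fold change of Phyh was 0.52 (adjusted p = 0.0132). Hacl1, the lyase of the next step, was at 139 to 179.5 CPM in WT livers and 129 to 208 CPM in HKO livers (log2 fold change 0.11, adjusted p = 0.7). Cat, the catalase that breaks down the hydrogen peroxide made by the oxidases, was at 3486 to 4291 CPM in WT livers and 3305 to 4014 CPM in HKO livers (log2 fold change -0.07, adjusted p = 0.772). Hao1, the glycolate oxidase of hepatocytes, was at 304 to 385 CPM in WT livers and 387 to 468 CPM in HKO livers, without overlap but with an adjusted p of 0.081 (log2 fold change 0.33), and without WT replicate 4 its log2 fold change was 0.39 (adjusted p = 0.0437). In DESeq2 both Phyh (adjusted p = 0.0284) and Hao1 (adjusted p = 0.0244) were called higher.

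The 5 membrane proteins gave a call in each direction and 3 without one. Abcd3, the ATP-binding transporter that brings branched and dicarboxylic acyl-CoA and bile acid precursors into the organelle, lies on chromosome 3 from 121758904 to 121815303. It measured 1038, 898, 906 and 909.6 CPM in WT livers and 655, 670.3, 789 and 693 CPM in HKO livers, with WT replicate 1 above 3 close WT values. The level fell 1.34-fold (log2 fold change -0.42, SE 0.09, adjusted p = 0.025). This call was lost without WT replicate 1 (adjusted p = 0.0879) or 2 (0.0735) and without HKO replicate 1 (0.0573), 2 (0.0691) or 4 (0.0691). Pxmp2, a channel of the peroxisomal membrane for small solutes, on chromosome 5 from 110274286 to 110286169, was the member that rose, from 68.8, 61.2, 70.2 and 83.99 CPM in WT to 92.1, 94.8, 87.1 and 95.4 CPM in HKO livers. Its HKO livers were close together and WT replicate 4 came nearest to them. The rise was 1.30-fold (log2 fold change 0.38, SE 0.10, adjusted p = 0.0442), and the call was kept without WT replicate 4 but lost when any of the other 7 livers was left out (adjusted p between 0.0596 and 0.129) and with total count scaling (0.104).

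Abcd2, a transporter of very long-chain acyl-CoA, measured 111, 87.9, 71.2 and 45.1 CPM in WT livers and 25.2, 23.1, 3.04 and 34.5 CPM in HKO livers. No HKO liver reached the lowest WT liver, but the WT livers covered a wide range and HKO replicate 3 was near the bottom of the scale. The log2 fold change was -1.88 (SE 0.69, adjusted p = 0.206) and -1.51 (adjusted p = 0.0631) without HKO replicate 3. Slc25a17, which carries CoA and other cofactors across the membrane, was at 49.4 to 64.9 CPM in WT livers and 52.1 to 64.9 CPM in HKO livers (log2 fold change -0.02, adjusted p = 0.955). Pxmp4, a membrane protein of unclear function, was at 41.8 to 51.1 CPM in WT livers and 38.7 to 45.1 CPM in HKO livers (log2 fold change -0.18, adjusted p = 0.316).

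**Figure D3:**
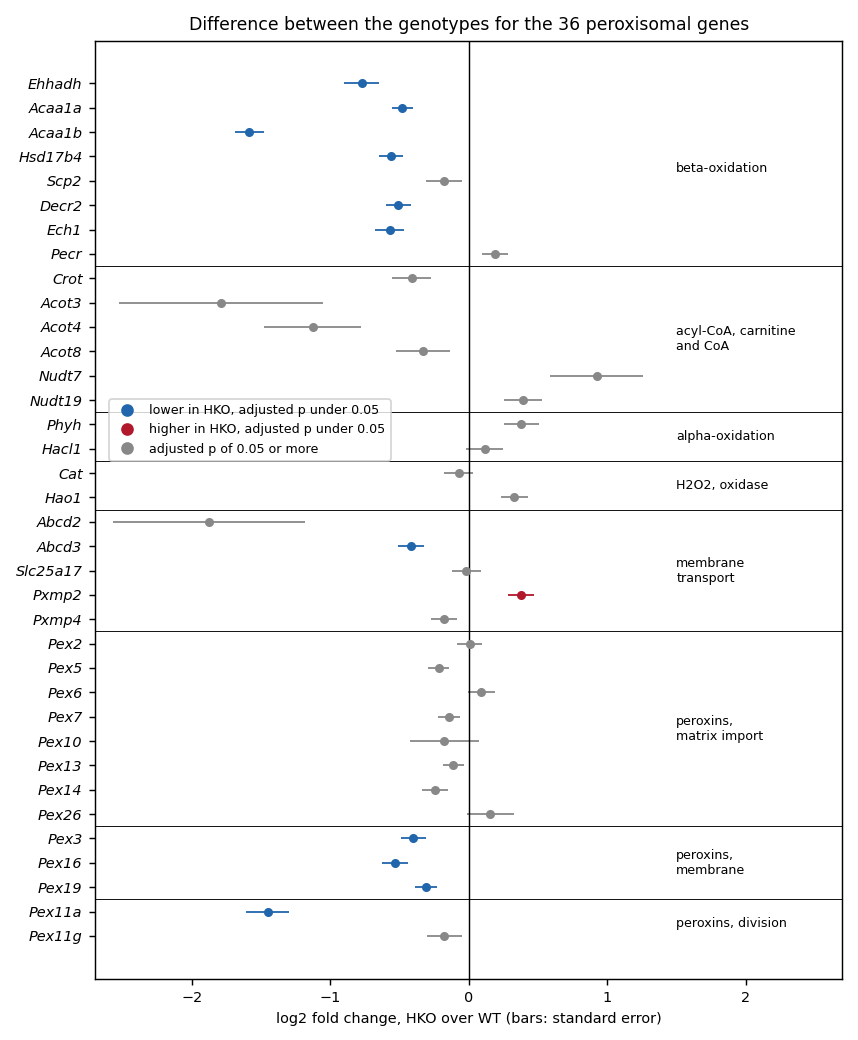
Log2 fold change of each gene, HKO over WT, with bars for the standard error and colour for the test at an adjusted p under 0.05. The 6 lower calls of beta-oxidation and the 3 of membrane assembly stand left of 0 with short bars, while Acot3 and Abcd2 lie furthest left of all 36 genes with long bars and no call.

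Calls among the peroxins lay in membrane assembly and division. All 3 that insert proteins into the peroxisomal membrane fell, 1 of the 2 division factors fell, and none of the 8 that import matrix enzymes passed the test. Pex3 is the membrane anchor for the chaperone Pex19, and Pex16 helps to place Pex3. Pex16, on chromosome 2 from 92374676 to 92381221, measured 32.2, 38.04, 31.5 and 30.6 CPM in WT livers and 21.6, 23.9, 24.00 and 22.05 CPM in HKO livers, a fall of 1.45-fold (log2 change -0.53, SE 0.09, adjusted p = 0.00968). Pex3, on chromosome 10 from 13523842 to 13553143, measured 59.9, 57.6, 49.7 and 50.8 CPM in WT livers and 42.2, 37.3, 42.02 and 43.7 CPM in HKO livers (log2 fold change -0.40, adjusted p = 0.0265). Pex19, on chromosome 1 from 172126755 to 172136498, measured 114, 109.9, 105 and 96.02 CPM in WT livers and 83.4, 91.2, 82.2 and 86.1 CPM in HKO livers (log2 fold change -0.31, adjusted p = 0.0423). The genotypes did not overlap for any of these 3 genes, although WT replicate 4 came within a few CPM of the highest HKO liver for Pex19. The call of Pex3 was lost without WT replicate 1 (adjusted p = 0.0918) or 2 (0.103) and without HKO replicate 2 (0.0691) or 3 (0.0551). The call of Pex19 was kept without WT replicate 4 and lost when any of the other 7 livers was left out (adjusted p between 0.0586 and 0.142), whereas Pex16 was called in all 8 of these fits.

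Pex11a, a membrane-shaping factor that elongates peroxisomes before division and that PPARα agonists induce, showed the largest difference among the peroxins. It lies on chromosome 7 from 79735958 to 79743132, and it measured 247, 299, 243 and 206 CPM in WT livers and 111, 87.2, 97.6 and 67.7 CPM in HKO livers. The lowest WT liver was well above the highest HKO liver, and HKO replicate 4 was the lowest of all. The means of 249 ± 38.4 and 90.8 ± 18.1 CPM (SD, n = 4) differed 2.74-fold, a log2 fold change of -1.45 (SE 0.16, adjusted p = 0.0012). Its relative Pex11g was at 20.3 to 28.98 CPM in WT livers and 18.05 to 24.1 CPM in HKO livers, with overlap (log2 fold change -0.18, adjusted p = 0.495).

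Matrix import genes gave no call. The log2 fold changes of its 8 genes lay between -0.24 and 0.15, with a median of -0.13. Of the receptors of the import signals, Pex5 was at 84.4 to 92.1 CPM in WT livers and 72.01 to 84.5 CPM in HKO livers (log2 fold change -0.22, adjusted p = 0.139). Pex7 was at 78.98 to 91.8 CPM in WT livers and 71.4 to 84.3 CPM in HKO livers (log2 fold change -0.14, adjusted p = 0.366), and both overlapped between the genotypes. In the docking complex, Pex14 was at 26.6 to 32.2 CPM in WT livers and 22.9 to 26.2 CPM in HKO livers, without overlap but short of the threshold (log2 fold change -0.24, adjusted p = 0.171), and Pex13 was at 121 to 138 CPM in WT livers and 111 to 125 CPM in HKO livers (log2 fold change -0.11). Of the ubiquitin ligase that recycles the receptor, Pex2 was at 65.05 to 83.2 CPM in WT livers and 67.8 to 75.7 CPM in HKO livers (log2 fold change 0.01). Its partner Pex10 was at 2.48 to 3.38 CPM in WT livers and 1.75 to 3.71 CPM in HKO livers (log2 fold change -0.18). Pex6, an ATPase that pulls the receptor out of the membrane, was at 23.1 to 28.8 CPM in WT livers and 25.1 to 28.96 CPM in HKO livers (log2 fold change 0.09), and its anchor Pex26 at 18.5 to 28.2 CPM in WT livers and 19.3 to 32.1 CPM in HKO livers (log2 fold change 0.15). Each of these estimates was nearer to 0 than those of Pex3 and Pex19, and the difference between the groups of peroxins was not tested. By edgeR 2 of the 8 (Pex5 and Pex14) had an unadjusted p under 0.05, and DESeq2 and limma-voom called 0.

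**Figure D4:**
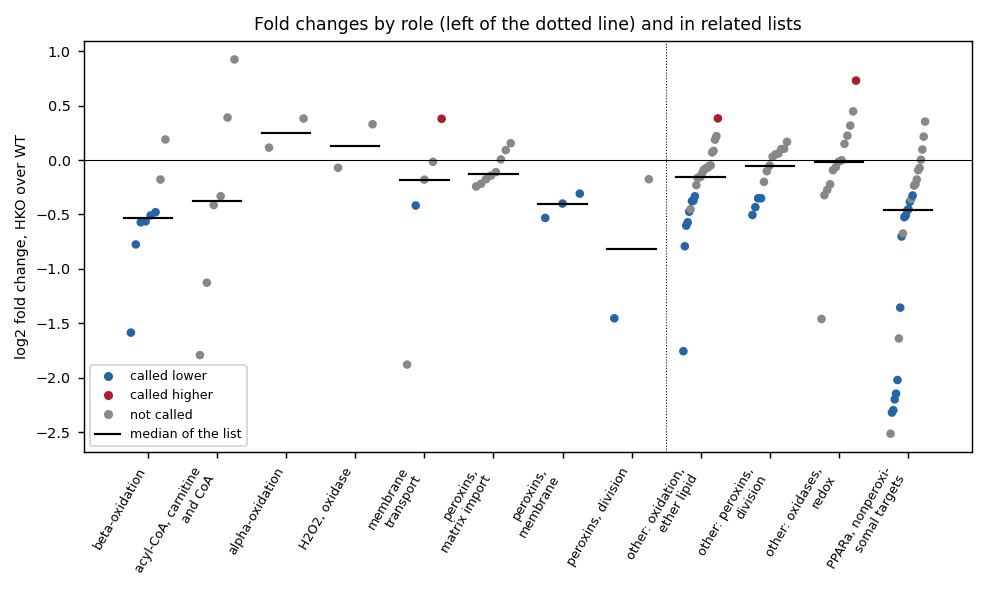
Log2 fold change of each gene by role, to the left of the dotted line, and of the other peroxisomal genes and the genes tied to PPARα outside the peroxisome, to the right, with black lines for medians. The medians of beta-oxidation (-0.54), membrane assembly (-0.40) and division (-0.82, from 2 genes) lie under that of matrix import (-0.13), and the PPARα list (-0.46) is lower than the 3 other peroxisomal lists.

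Per length of transcript, the 36 genes spanned a wide range of levels. Scp2, Phyh and Cat were the 3 highest in both genotypes, at 3108, 1708 and 1473 CPM per kb in WT and 2745, 2223 and 1402 CPM per kb in HKO livers, and none of these passed the test. Acaa1b ranked 4 in WT at 404 CPM per kb and 10 in HKO livers at 135 CPM per kb. Nudt7 moved from rank 14 at 93.2 to rank 7 at 177 CPM per kb, with an HKO mean raised by 1 liver. Pex11a stood at 111 and 40.5 CPM per kb, and Pex10 was the lowest in both genotypes at 1.83 and 1.64 CPM per kb. Together the 36 genes took 2.05% to 2.31% of all counts in WT and 1.78% to 2.0% in HKO livers, and without Scp2 they took 1.27% to 1.37% and 1.08% to 1.21%. Among the WT livers, replicate 2 held the highest value in 16 of the 36 genes, and among the HKO livers replicate 1 held the lowest in 15.

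**Figure D5:**
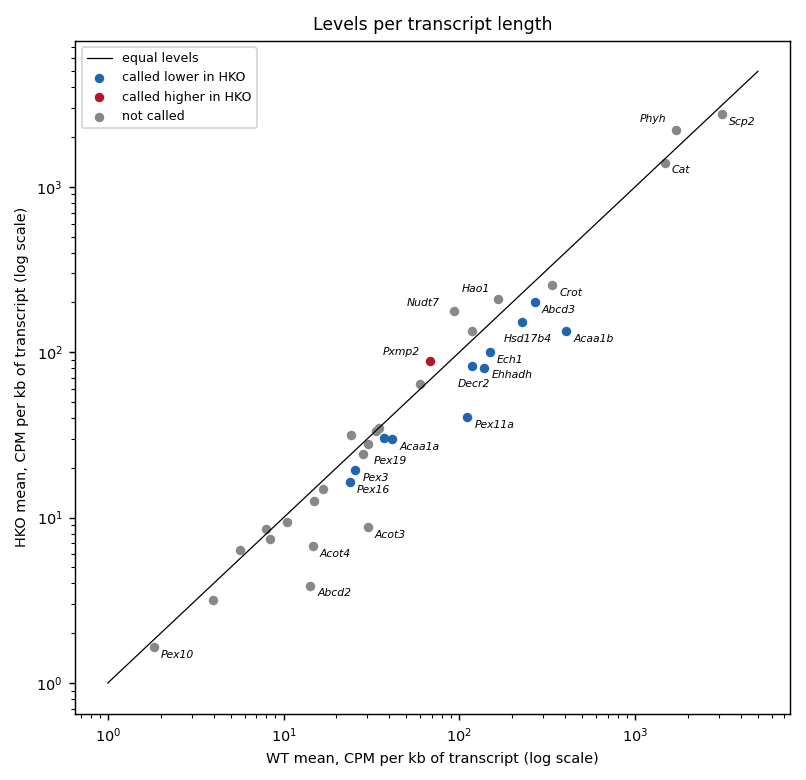
Mean level of each of the 36 genes in WT (horizontal) and HKO livers (vertical), in CPM per kb of transcript on log scales, with the line of equal levels and colour for the test. Acaa1b and Pex11a lie furthest under the line among the genes called, and the 3 most abundant genes, Scp2, Phyh and Cat, lie near it.

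Peroxisomal genes outside the 36 were lower in part. Of 58 such genes on 3 lists, 51 were tested, of which 12 were lower, 2 were higher and 37 did not pass the test. Over all genes tested, 3.37% were lower and 1.66% higher. The median log2 fold change of the 51 was -0.09, against 0.01 over all genes tested. On the list of oxidation, bile acid side chain and ether lipid enzymes, 8 of 25 tested genes fell and 1 rose. Crat, the carnitine acetyltransferase that exports acetyl groups, showed a log2 fold change of -1.76 (adjusted p = 0.00202), Hsdl2 of -0.60 and the acyl-CoA synthetase Acsl1 of -0.47. Slc27a5, the bile acyl-CoA synthetase, rose with 0.38 (adjusted p = 0.0488). Of 13 further peroxins, division factors and proteases tested, 4 fell, among them Tmem135 (-0.50) and the proteases Tysnd1 (-0.35) and Lonp2 (-0.35). Of 13 oxidases, amino acid and redox enzymes tested, none fell in edgeR (3 by an unadjusted p, 1 in DESeq2, 0 in limma-voom), and Agxt, which detoxifies glyoxylate, rose (log2 fold change 0.73, adjusted p = 0.0177). With each liver left out in turn, Crat and Hsdl2 were called in all 8 fits, Tmem135 and Agxt in 6, Acsl1 in 2, Slc27a5 and Lonp2 in 1 and Tysnd1 in 0 (adjusted p of 0.0517 to 0.133).

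Genes tied to PPARα outside the peroxisome were lower in part. Of the receptor and 25 genes tied to it, 13 fell, against 3.37% of all genes tested, and 13 did not pass the test. None rose, against 1.66% of all genes (1 by an unadjusted p, 0 in DESeq2 and limma-voom). The median log2 fold change was -0.46. The genotypes did not overlap in 18 that were lower, against 7.21% of all genes. Ppara itself measured 661, 682, 666 and 676 CPM in WT livers and 564, 564, 523 and 492 CPM in HKO livers (log2 fold change -0.33, adjusted p = 0.0358), and it was called in 1 of 8 when each liver was left out (adjusted p of 0.0455 to 0.119). The largest differences among those called were in the fatty acid transporter Cd36 (-2.32), the hormone Fgf21 (-2.30), the mitochondrial thioesterase Acot2 (-2.20), the kinase Pdk4 (-2.15), the pantetheinase Vnn1 (-2.02) and the lipid droplet protein Plin2 (-1.36), of which Cd36, Vnn1 and Plin2 were called in all 8, Fgf21 and Pdk4 in 7 and Acot2 in 6. Fgf21 was scarce, at 1.54 to 3.07 CPM in WT livers and 0.154 to 0.877 CPM in HKO livers. In HKO replicates 2 and 3 it was at or under the floor of 3 counts. All genes of this list were measured in the same livers as the 36, and no test of a link between the receptor and the peroxisomal genes was made. The element through which the receptor binds DNA is named DR1, a direct repeat of AGGTCA with 1 base between, and it was searched on both strands with up to 2 mismatches from 250 bases before to 50 bases after the gene start. It was found for 2 of the 31 genes whose window RefSeq gives, and for 4.40% of 27025 genes. These windows are shown because they place the element beside Acot4, at chr12:84038358-84038386, and Cat, at chr2:103485337-103485365 (GRCm38.p6), on the strand of each gene with the element in capitals.
Acot4: ccgaagcaTGACCTTTGGCCGgtctgtgc
Cat: actctcagAGGTCAGAGAACAccagcagg
None of the genes that fell and whose window was given held such a run of letters there, which says nothing of elements elsewhere.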

How the data were processed

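The 8 liver RNA-Seq libraries, 4 WT and 4 HKO, were grouped by the labels. The authors deposited estimated counts per gene, made with STAR and the expectation-maximization method of Partek per the submitters' processing notes and the labels, not normalized and 1 column per liver. Versions and annotation are not given in the sources used here. This method splits reads that match several genes, so values of close paralogs are uncertain. The library type is uncertain, since rRNA depletion and a kit for small RNA are both named in the labels. Coordinates were taken as listed. Of the listed symbols, 17785 were found in RefSeq for GRCm38.p6, and 87.5% of them had the same start or end within 1 base.

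Estimated counts were rounded to whole numbers. All genes were fitted with edgeR 4.0.16 in R 4.3.3 (TMM, default expression filter with a minimum count of 10, robust dispersion, quasi-likelihood test), and p values were adjusted by the Benjamini-Hochberg method over 12395 genes, with a threshold of 0.05. SE was obtained from the log2 fold change and the root of the F statistic. The fit was tested on simulated counts. The labels do not say more of the replicates than that each is a separate liver, with 4 per genotype, so p values measure the spread between these livers. CPM per kb used the longest protein-coding GENCODE transcript. Also tried were limma-voom (limma 3.58.1), DESeq2 1.42.0, the legacy quasi-likelihood method, RLE, total count and upper quartile scaling, other filters, the replicate number as a block, summed paralogs, a fold change above 1.5, and each liver left out in turn. Plots used matplotlib 3.10.9.

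Values in every liver were given for members past the threshold and for Crot, other members by ranges and fold changes (Acot3, Acot4, Abcd2 and Nudt7 in every liver too, a choice made after their values were seen), and of the other lists Ppara and at most 6 called genes a list with the largest difference. Some genes that this rule names are not reported here. The members and all gene lists were chosen with earlier results of these data known.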

Additional observations from a re-analysis of the deposited data

Results flagged for a closer look

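In 72 groups of 4 livers (36 genes in 2 genotypes), 4 held a liver far from the other 3 by Dixon's criterion, where chance gives about 1 in 20 groups, or about 4. Phyh measured 3489 CPM in HKO replicate 4 and 3069 to 3124 CPM in the other HKO livers. Abcd3 measured 1038 CPM in WT replicate 1 and 898 to 909.6 CPM in the other WT livers, and its call was lost without that liver. Pex13 measured 138 CPM in WT replicate 4 and 121 to 123 CPM in the other WT livers. Pex14 measured 22.9 CPM in HKO replicate 1 and 25.6 to 26.2 CPM in the other HKO livers.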

How the results depend on the processing

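The number of members lower in HKO livers was 11 and stayed between 10 and 12 with DESeq2, limma-voom, the legacy method, the other scalings and the other filters. It was 9 with paralogs summed, where Acaa1a and Acaa1b no longer count as members and their sum was still called, 8 to 11 with each liver left out, and 3 (Ehhadh, Acaa1b and Pex11a) with a fold change above 1.5 also required. The number higher was 1, and it was 3 with DESeq2 (Pxmp2, Phyh and Hao1), 0 with total count scaling, 0 with the fold change of 1.5, and 0 to 3 with each liver left out (3 without WT replicate 4, 0 without any of the other 7). The median log2 fold change of the members was -0.20, -0.29 with total count scaling and between -0.25 and -0.18 with each liver left out. Total count scaling moved the median of all genes from 0.01 to -0.08. Of the 12 members called, 8 were called in all 8 fits that left out a liver, and all 12 by both DESeq2 and limma-voom. Of 644 fold changes of single members under alternatives, 600 kept their direction and side of the threshold, 29 lost a call (Abcd3, Pxmp2, Pex3 and Pex19), 7 gained a call and 8 changed sign. The sign changed only in genes never called, namely Slc25a17 (-0.0877 to 0.041 with each liver left out) and Pex2 (-0.0765 with total count scaling, -0.0359 to 0.0881 with each liver left out). Pex19 had an adjusted p of 0.0594 without an expression filter. Replicate numbers 1 to 4 occur in both genotypes, but livers with the same number did not deviate together (correlations of -0.0624, 0.0116, -0.0847 and -0.148). The number was therefore not taken as a pairing. Which livers shared a litter or cage is not given in the sources used here, and links of that kind were not tested. With the replicate number as a block, 8 members were lower and 0 higher, and no liver correlated best with its own number. The cause of these shifts was not tested. At these depths 3 counts correspond to at most 0.255 CPM, under the level of all 36 genes in every liver.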
